A study of Mus musculus with 15 samples.

Results

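The genes described here encode 10 chromatin regulators of the Polycomb system and its Asxl branch, namely Ezh1, Ezh2, Eed, Suz12, Rnf2, Bmi1, Cbx7, Bap1, Asxl1 and Asxl2. They were chosen by name from the 45232 Ensembl genes of the count table, and each one matched a single gene ID. Genes on the opposite strand overlap at most 6.82% of a member's exon bases (Eed), and their reads may be counted together. All 10 passed the filter on low counts and were among the 17834 genes tested. Polycomb repressive complex PRC2 places methyl groups on lysine 27 of histone H3, and PRC1 binds that mark and ubiquitinates histone H2A. The PR-DUB complex, in which an ASXL protein activates the deubiquitinase BAP1, removes that ubiquitin. In blood-forming stem cells these complexes keep developmental and cell cycle inhibitor genes silent, and genes of this system, EZH2 and ASXL1 among them, are recurrently mutated in myeloid neoplasms.

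RNA was measured by sequencing in LSK cells, the lineage-negative, Sca-1-positive, Kit-positive fraction of mouse bone marrow that holds stem cells and multipotent progenitors. There were 15 libraries, 3 in each of 5 groups, all of CD45.2+ cells of C57BL/6 strain. Vehicle, AG221, Rux and combo libraries came from recipients of marrow with both Jak2 V617F and Idh2 R140Q, alleles that the study switched on in hematopoietic cells with inducible Mx1-Cre and transplanted in equal parts with CD45.1 wild-type competitor cells. AG221, an inhibitor of mutant IDH2, was given at 40 mg/kg and ruxolitinib (Rux), an inhibitor of JAK kinases, at 60 mg/kg, alone or together (combo), by gavage for 21 to 28 days, with the last dose about 1.5 hours before sacrifice. The WT group is labelled wild type, and its treatment is not given in the labels. The labels do not say whether a library is 1 mouse. The study counts its recipients by group, in the same number as the libraries, without saying whether a library is 1 animal, so the spread between libraries may be partly technical. Names of vehicle, AG221 and Rux libraries begin with A and those of combo and WT with B. What the letter stands for is not stated, so it cannot be told apart from the group in any comparison of an A group with a B group.

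Counts per library summed to between 18836625 and 32174287. Levels are given as CPM, counts scaled to library size with TMM factors. Genes of at least 58% exonic GC (1365 of the tested genes) set 4 libraries apart. Their median log2 CPM, centred on each gene's mean, was -1.10 in AG221 A8, -0.81 in AG221 A10, -0.44 in Rux A16 and -0.19 in vehicle A1, against 0.03 to 0.40 in the other 11. Results that rest on these 4, called GC-poor libraries here, are given with and without them. Kit and Ly6a, the genes of the sorted surface markers, had counts in every library. Ly6a was at 166, 71.9 and 13.1 CPM in vehicle and at 59.9, 72.5 and 81.0 CPM in WT. The summed level of 10 LSK genes was 4152 to 4579 CPM in WT and 2126 to 3561 CPM in vehicle. At an adjusted p under 0.05 by edgeR, 3 of the 10 were lower and 1 higher in vehicle, beside 17.9% and 15.4% of all tested genes. Slamf1 had a mean of 37.4 CPM in vehicle and 13.3 CPM in WT. Ly6a also had a higher mean in vehicle, and all other genes of this list had lower ones. Among the latter, Flt3 had means of 144.1 CPM in vehicle and 571.5 CPM in WT. Those of Hlf were 59.54 and 277.8 CPM, and those of Procr 16.99 and 42.92 CPM. In combo the means of Flt3, Hlf and Procr were 370, 130.3 and 16.58 CPM. The sum of 6 neutrophil genes was 2901 to 3257 CPM in WT, 6563 to 11153 in vehicle, 14609 to 17538 in AG221, 10728 to 16866 in Rux and 3563 to 6269 in combo. Of 8 marker lists of other cell types, 5 had a higher sum in every vehicle library than in any WT library and 3 a lower one. Summed plasma cell genes (5 genes) were at 2235 to 7200 CPM in WT and 67.4 to 210 in vehicle, those of mast cells and basophils at 71.2 to 147 CPM in WT and 496 to 990 in vehicle, and those of megakaryocytes at 252 to 344 CPM in WT and 878 to 941 in vehicle. A lower level here can mean fewer cells of a type or less RNA per cell, and these bulk libraries cannot tell them apart. Xist was at 455 to 511 CPM in the WT libraries and at most 19.5 CPM in the mutant ones, and the Y-linked Ddx3y was at 124 to 206 CPM in the mutant libraries and near 0 in WT, so sex cannot be told apart from genotype in any comparison with WT.

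In combo, 4 of the 10 genes were higher than in vehicle (Ezh2, Suz12, Bmi1 and Asxl1), so the 250 bases upstream of their RefSeq starts (GRCm38.p6) are shown, with that of Cbx7, which like Bmi1 was lower in vehicle than in WT. Ezh2 lies on the minus strand and its window is chr6:47595031-47595280. Suz12 (plus strand, chr11:79992856-79993105), Bmi1 (plus, chr2:18676768-18677017), Asxl1 (plus, chr2:153345580-153345829) and Cbx7 (minus, chr15:79932647-79932896) follow, each 5′ to 3′ on the gene's strand, with matches on either strand to the searched motifs in capitals. The RefSeq starts of Ezh2 and Cbx7, and their whole windows, lie within the longer genes that GENCODE annotates. The Asxl1 window ends on the first base of its GENCODE gene.
Ezh2: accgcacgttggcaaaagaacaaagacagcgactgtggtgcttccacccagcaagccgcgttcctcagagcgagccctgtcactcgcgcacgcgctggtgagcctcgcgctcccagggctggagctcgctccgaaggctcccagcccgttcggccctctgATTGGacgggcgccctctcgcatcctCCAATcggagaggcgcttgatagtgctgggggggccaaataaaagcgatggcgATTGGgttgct
Suz12: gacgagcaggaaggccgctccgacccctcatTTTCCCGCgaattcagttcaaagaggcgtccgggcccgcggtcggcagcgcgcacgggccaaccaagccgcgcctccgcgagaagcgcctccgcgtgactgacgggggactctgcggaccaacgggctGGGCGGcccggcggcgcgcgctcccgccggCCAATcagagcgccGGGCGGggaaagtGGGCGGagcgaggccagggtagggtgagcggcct
Bmi1: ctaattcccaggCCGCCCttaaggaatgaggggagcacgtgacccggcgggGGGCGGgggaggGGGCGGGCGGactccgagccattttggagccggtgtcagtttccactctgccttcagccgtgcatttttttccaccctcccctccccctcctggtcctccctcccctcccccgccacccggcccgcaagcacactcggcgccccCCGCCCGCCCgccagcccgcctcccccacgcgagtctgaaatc
Asxl1: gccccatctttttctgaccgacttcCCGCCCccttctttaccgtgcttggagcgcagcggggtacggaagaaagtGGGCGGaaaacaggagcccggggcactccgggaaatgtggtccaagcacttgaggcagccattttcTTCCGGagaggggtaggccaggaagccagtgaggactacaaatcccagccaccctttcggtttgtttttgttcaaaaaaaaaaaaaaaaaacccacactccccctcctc
Cbx7: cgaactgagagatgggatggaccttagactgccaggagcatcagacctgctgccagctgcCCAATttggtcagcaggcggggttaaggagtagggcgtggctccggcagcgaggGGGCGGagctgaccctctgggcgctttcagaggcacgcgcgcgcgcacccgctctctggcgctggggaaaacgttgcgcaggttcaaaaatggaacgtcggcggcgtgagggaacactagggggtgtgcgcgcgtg

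The motifs searched were the CCAAT box (CCAAT), the GC box (GGGCGG), E2F sites (TTTGGCGC or TTTCCCGC), an ETS site (CCGGAA), a STAT site (TTCNNNGAA) and an AP-1 site (TGANTCA), and overlapping matches of one motif were each counted. Ezh2 had 3 CCAAT boxes and Bmi1 had 6 GC boxes. Suz12 had 3 GC boxes, 1 CCAAT box and 1 E2F site. Asxl1 had 2 GC boxes and 1 ETS site, and Cbx7 had 1 CCAAT box and 1 GC box. Of 32841 RefSeq promoter windows of the same length, 33.9% held a CCAAT box, 32.7% a GC box, 1.3% an E2F site and 12% an ETS site. STAT and AP-1 sites were found in 7.02% and 6.75% of all windows and in none of the 10 members' windows. These are matches of letters in a short window and say nothing about binding.

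Per length of exons, the deubiquitinase gene Bap1 and the PRC1 ligase gene Rnf2 were the most abundant members in WT LSK cells, at 39.0 ± 2.28 and 34.3 ± 1.80 RPKM (SD, n = 3). Ezh2, at 19.3 ± 1.97 RPKM, stood above its paralog Ezh1, at 12.2 ± 0.797 RPKM, and Eed lay between them at 15.2 ± 0.941 RPKM. Suz12 (8.94 ± 0.0563), Bmi1 (7.67 ± 1.83), Asxl2 (6.38 ± 0.435) and Asxl1 (5.74 ± 0.151 RPKM) followed, and Cbx7 was lowest at 3.53 ± 1.15 RPKM. Bmi1 did not differ from Suz12 or Asxl2 by more than its spread. In vehicle, Bmi1 stood at 3.99 ± 0.563 RPKM, below Asxl1 at 5.08 ± 0.239, and in combo, at 11.5 ± 3.59 RPKM, it had the sixth highest mean of the 10.

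**Figure D1:**
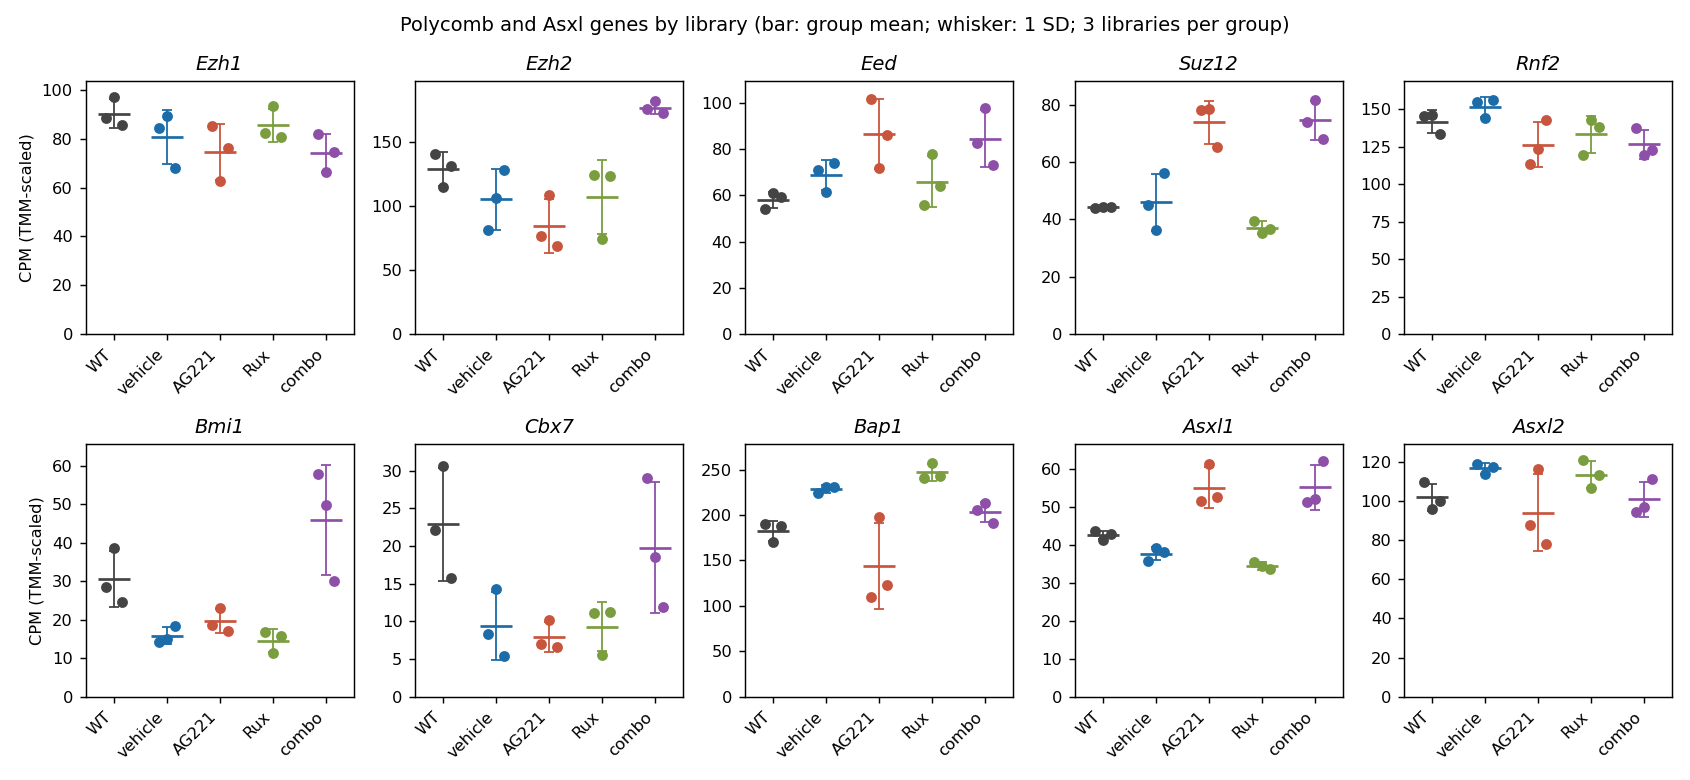
TMM-scaled CPM (vertical axes from 0) of the 10 genes in every library, by group on the horizontal axes, with points for libraries, bars for group means and whiskers of 1 SD (n = 3). Bmi1 and Cbx7 are low in vehicle, AG221 and Rux, Suz12 and Asxl1 are high in AG221 and combo, and Ezh2 is high in combo.

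The comparison of vehicle with WT shows how LSK cells with both mutations differed from wild-type ones. Bmi1 and Cbx7, genes of PRC1, were called lower in vehicle, and no member was called higher. Rnf2, also of PRC1, was not called (log2 0.10, SE 0.120, adjusted p = 0.545 by edgeR). The 2 of 10 members called (Benjamini-Hochberg adjusted p under 0.05 over all tested genes, by the quasi-likelihood test of edgeR) stand against 33.3% of all tested genes called in this comparison, 17.9% called lower and 15.4% higher in vehicle, so the members' share was not above the background.

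Bmi1 encodes the PCGF4 subunit that pairs with the RING ligases in canonical PRC1 and is needed for self-renewal of blood stem cells. It lies at chr2:18677018-18686629. Its level was 28.4, 38.6 and 24.5 CPM in the WT libraries and 14.2, 15.0 and 18.4 CPM in vehicle, with no overlap. It was 1.92-fold lower in vehicle (log2 -0.94, SE 0.257, adjusted p = 0.0165 by edgeR). Leaving out vehicle A1 or WT B30 ended the call, and the value stayed between -1.07 and -0.72 in all 14 alternatives. The fits without vehicle A1 and without WT B30 called 18.3% and 10.5% of all tested genes, beside 33.3% in the main fit.

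Cbx7 encodes the chromodomain subunit that brings canonical PRC1 to methylated histone H3. It lies at chr15:79915807-79971119. It was measured at 22.2, 30.7 and 15.8 CPM in WT and at 8.35, 14.3 and 5.45 CPM in vehicle, again without overlap, a 2.44-fold lower level (log2 -1.28, SE 0.416, adjusted p = 0.0320 by edgeR). With the 4 GC-poor libraries left out, the value was -1.18 (adjusted p = 0.0601). Leaving out vehicle A1, vehicle A4, WT B28 or WT B30 ended the call as well, and the values of all 14 alternatives lay between -1.71 and -0.99. WT B30, the highest WT library for Bmi1 and Cbx7, was also the one with the highest plasma cell sum (7200 CPM), and the part of other cell types in these differences was not tested. The spread of Cbx7 within groups was wide, with a coefficient of variation of 48.3% in vehicle and 32.7% in WT. Rnf2, which encodes the RING1B ligase of PRC1, overlapped between the groups at 144 to 156 CPM in vehicle and 133 to 146 CPM in WT.

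No gene of the PRC2 core was called. Ezh2, the main methyltransferase of dividing cells, was at 140, 115 and 131 CPM in WT and 80.9, 106 and 128 CPM in vehicle (log2 -0.29, SE 0.223, adjusted p = 0.320 by edgeR), and the groups overlapped. The lowest vehicle value was that of A1, one of the 4 libraries low in GC-rich genes. Ezh1, Eed and Suz12 were not called either. Of the PR-DUB genes, Bap1 was at 224, 231 and 231 CPM in vehicle and 190, 170 and 188 CPM in WT. The groups did not overlap, yet the value missed the threshold (log2 0.32, SE 0.172, adjusted p = 0.155 by edgeR). In the fit lacking the 4 GC-poor libraries, it was 0.36 with an adjusted p of 0.0308. In all, 6 of 10 members had groups that did not overlap, 3 higher and 3 lower in vehicle, and so did 56.9% of all tested genes.

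**Figure D2:**
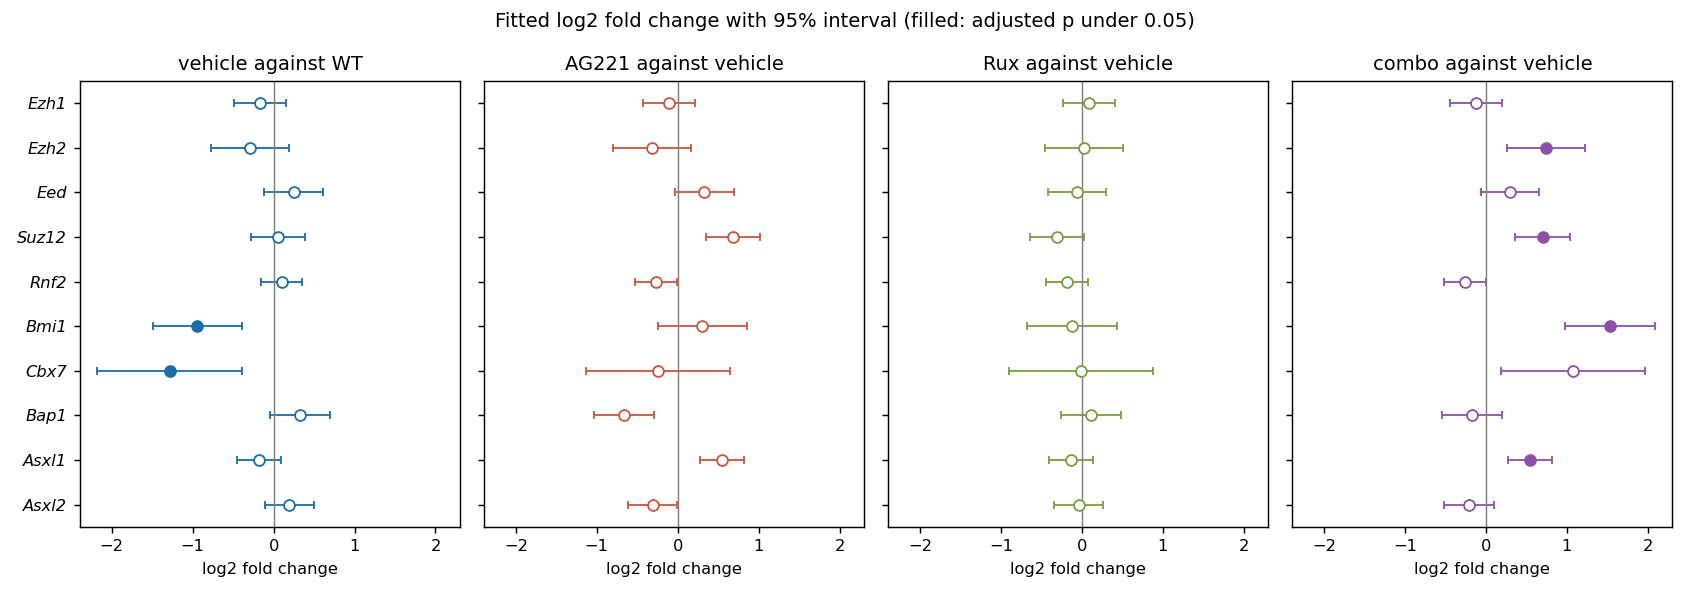
Fitted log2 fold changes (horizontal axes) of the 10 genes in 4 comparisons with 95% intervals, with filled points for genes with an adjusted p under 0.05. Bmi1 and Cbx7 are filled on the low side for vehicle against WT, Ezh2, Suz12, Bmi1 and Asxl1 on the high side for combo against vehicle, and none is filled for either single drug.

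AG221 alone was compared with vehicle to ask what inhibition of mutant IDH2 does in these cells. By edgeR no member was called, with 0.987% of all tested genes called (0.471% higher and 0.516% lower), and 5 of 10 had an unadjusted p under 0.05, beside 25.2% of all tested genes. Suz12 and Asxl1 came closest among the higher members and Bap1 among the lower. Unadjusted p-values were 0.000681, 0.000743 and 0.0018 for the 3 genes.

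Suz12, which encodes the zinc finger scaffold of PRC2 (chr11:79993106-80034123), was at 78.1, 78.4 and 65.2 CPM in AG221 and 45.2, 36.4 and 56.2 CPM in vehicle, with every AG221 library above every vehicle one (log2 0.69, SE 0.157, adjusted p = 0.0537 by edgeR). Asxl1, which encodes a PR-DUB subunit that activates BAP1 (chr2:153345829-153404007), was at 51.5, 61.3 and 52.7 CPM in AG221 and 35.8, 39.3 and 38.2 CPM in vehicle (log2 0.55, SE 0.126, adjusted p = 0.0540). For both genes every AG221 library stood above every vehicle library, AG221 A9 with its ordinary level of GC-rich genes included. Without the 4 GC-poor libraries the differences were 0.73 for Suz12 (adjusted p = 0.317) and 0.63 for Asxl1 (adjusted p = 0.268), with AG221 A9 as the 1 library of its group.

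Bap1, the deubiquitinase gene (chr14:31251450-31259944), was at 110, 198 and 123 CPM in AG221, in the order A8, A9 and A10, and at 224 to 231 CPM in vehicle (log2 -0.67, SE 0.173, adjusted p = 0.0626). Both low values belong to the libraries lowest in GC-rich genes, while Rux A16, the next lowest, had 257 CPM. With the 4 GC-poor libraries left out, the difference was -0.25 with an adjusted p of 0.591, the lone AG221 library being assumed to vary like the other groups. Between 0 and 4 members were called when single libraries were left out, with 4 (Suz12, Asxl1, Asxl2 and Bap1) without AG221 A9, a fit that called 24.4% of all tested genes. DESeq2 called 3 members where edgeR called 0, beside 15.4% of all genes it gave an adjusted p. In AG221 against vehicle, 4 of 10 members had groups that did not overlap, beside 20% of all tested genes.

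**Figure D3:**
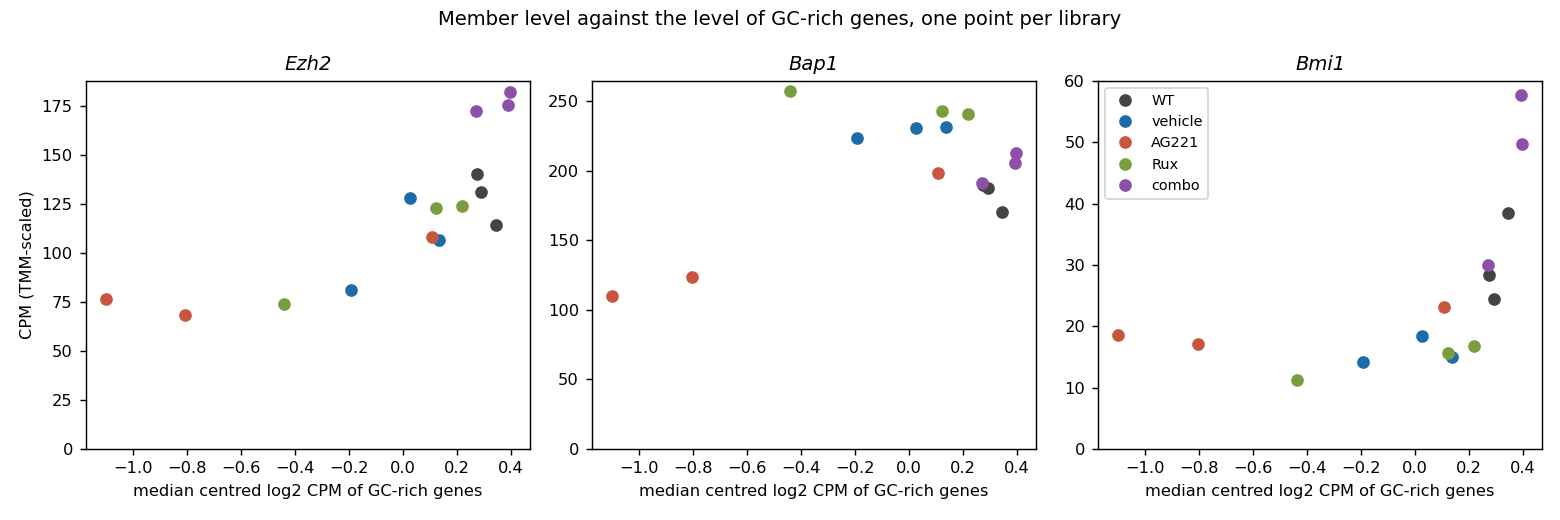
Level of Ezh2, Bap1 and Bmi1 (TMM-scaled CPM, vertical axes from 0) against the median centred log2 CPM of GC-rich genes (horizontal axes) with 1 point per library and colours for groups. The Ezh2 values under 85 CPM belong to the 4 libraries left of 0, and Bap1 is lowest in the 2 AG221 libraries farthest left.

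Ruxolitinib alone was compared with vehicle to ask what JAK inhibition does. By edgeR no member was called, and 0.0168% of all tested genes were (3 genes, all lower). Member log2 differences ran from -0.30 for Suz12 to 0.11 for Bap1, and every adjusted p was 1 by edgeR. At an unadjusted p under 0.05, no member passed, beside 4.56% of all tested genes. Bmi1 at 16.7, 11.3 and 15.7 CPM and Cbx7 at 11.2, 5.55 and 11.2 CPM in Rux overlapped the vehicle values. DESeq2 likewise called 0 of 10, beside 0.259% of all genes it gave an adjusted p. The groups did not overlap for 3 of 10 members and for 8.17% of all tested genes.

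Combined treatment was compared with vehicle to ask what both drugs do together. Of 10 members, 4 were called higher (Bmi1, Suz12, Asxl1 and Ezh2) and none was called lower, against 12.5% of all tested genes called, 8.28% higher and 4.21% lower. The median log2 difference of the members was 0.42, with 6 positive and 4 negative, and that of all tested genes was 0.04. Of 10 members, 7 had groups that did not overlap, beside 34.7% of all tested genes. Of these 7, 4 were higher in combo and 3 lower (Rnf2, Bap1 and Asxl2). Combo libraries begin with B and vehicle ones with A, so the letter and the treatment cannot be told apart here.

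Bmi1 changed most, from 14.2, 15.0 and 18.4 CPM in vehicle to 57.7, 49.8 and 30.02 CPM in combo, in the order B24, B25 and B26. The lowest combo value lay above the highest vehicle value, and the mean was 2.89-fold higher (log2 1.53, SE 0.260, adjusted p = 0.00329 by edgeR). The call held in all 14 alternatives, with log2 values from 1.33 to 1.76. Combo B26 was the lowest of its group for Bmi1 and also for Cbx7, which was at 29.0, 18.5 and 11.8 CPM. Cbx7 overlapped vehicle and was not called (log2 1.07, SE 0.415, adjusted p = 0.113).

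In PRC2, Suz12 rose from 45.2, 36.4 and 56.2 CPM in vehicle to 74.0, 81.8 and 68.0 CPM in combo (1.62-fold, log2 0.70, SE 0.157, adjusted p = 0.0108 by edgeR). Ezh2 (chr6:47530139-47595341) rose from 80.9, 106 and 128 CPM to 176, 182 and 172 CPM (1.68-fold, log2 0.75, SE 0.224, adjusted p = 0.0434). All combo values of both genes were above all vehicle values. Without the 4 GC-poor libraries, and so without vehicle A1, Ezh2 differed by 0.54 (adjusted p = 0.0239). The Ezh2 call was lost with a GC content offset and in 5 of the 6 fits that left out 1 library, while its value stayed between 0.54 and 0.91 in all 14 alternatives. Eed, the subunit that binds the methylated histone (chr7:89954654-89980983), had a difference of 0.29 (SE 0.168, adjusted p = 0.292), and Ezh1, the methyltransferase of resting cells (chr11:101191115-101226463), one of -0.12 (SE 0.149, adjusted p = 0.672), and both overlapped vehicle.

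In PR-DUB, Asxl1 rose from 35.8, 39.3 and 38.2 CPM to 51.4, 52.2 and 62.2 CPM (1.46-fold, log2 0.55, SE 0.126, adjusted p = 0.0126 by edgeR), again without overlap. Its paralog Asxl2 (chr12:3426857-3506852) had a difference of -0.21 (SE 0.142, adjusted p = 0.387), and Bap1 one of -0.17 (SE 0.172, adjusted p = 0.582). Rnf2 (chr1:151458004-151500955) was lower in each combo library than in any vehicle library and missed the threshold (log2 -0.26, SE 0.120, adjusted p = 0.185). Leaving out vehicle A1 left Bmi1 as the 1 member called, and leaving out combo B25 or B26 left 2. All tested genes lost calls in these fits as well. The share called was 12.5% in the main fit, 5.26% without vehicle A1, 6.12% without combo B25 and 10.3% without combo B26.

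Other genes moved between the same groups. The summed level of 12 immediate early genes was 703 to 1247 CPM in combo and 767 to 1101 CPM in WT, against 6810 to 14751 CPM in vehicle, 3942 to 5555 CPM in AG221 and 4307 to 9285 CPM in Rux. Summed DNA replication and mitosis genes (20 genes) were at 4917 to 6004 CPM in WT, 7193 to 9169 CPM in vehicle and 7138 to 8666 CPM in combo. Of these 20 genes, 16 were called higher in vehicle than in WT, beside 15.4% of all tested genes. Ezh2, a gene known to follow the cell cycle, was not called. Its lowest vehicle value was that of A1, a GC-poor library. The part of immediate early, neutrophil or cell cycle genes in the members' values was not tested.

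Combo was set against each single drug. Against Rux, Bmi1 (log2 1.65, SE 0.262, adjusted p = 0.00203 by edgeR), Suz12 (1.004, SE 0.158, adjusted p = 0.00197) and Asxl1 (0.68, SE 0.127, adjusted p = 0.00403) were higher in combo, 3 of 10 beside 12.4% of all tested genes (8.5% higher and 3.94% lower). Each of these 3 calls held in all 14 alternatives. Ezh2 was at 124, 73.8 and 123 CPM in Rux and at or above 172 CPM in combo, which did not overlap (log2 0.72, SE 0.224, adjusted p = 0.0507). The low Rux value was that of A16, and without the 4 GC-poor libraries the difference was 0.49 (adjusted p = 0.0409). The groups did not overlap for 6 of 10 members and for 35.5% of all tested genes.

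Against AG221, Ezh2 (log2 1.07, SE 0.226, adjusted p = 0.00476 by edgeR), Bmi1 (1.23, SE 0.258, adjusted p = 0.00466), Cbx7 (1.32, SE 0.419, adjusted p = 0.0283) and Bap1 (0.50, SE 0.173, adjusted p = 0.0405) were higher in combo, 4 of 10 beside 33.2% of all tested genes (18.9% higher and 14.3% lower). The groups did not overlap for 3 of 10 members and for 44.6% of all tested genes, and those of Bap1 did overlap. Suz12 and Asxl1 overlapped between combo and AG221, with AG221 means of 73.9 and 55.2 CPM beside combo means of 74.6 and 55.2 CPM. Their 95% intervals for the difference were -0.32 to 0.35 for Suz12 and -0.27 to 0.27 for Asxl1 on the log2 scale. Without the 4 GC-poor libraries, which leaves AG221 A9 alone in its group, only sizes of differences are given. Ezh2 differed by 0.69, Bmi1 by 0.97, Cbx7 by 0.93 and Bap1 by 0.02, each less than in the main fit.

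The departure of combo from the sum of the single drugs was taken in the same fit, as the AG221 difference with Rux minus the AG221 difference without it. Bmi1 was the 1 member called (log2 1.35, SE 0.363, adjusted p = 0.0434 by edgeR), beside 8.42% of all tested genes (5.6% higher). In the fit lacking the 4 GC-poor libraries, its value was 1.03 (adjusted p = 0.322). Its call was kept without vehicle A1, AG221 A9, Rux A14 or combo B26 and lost when any other single library of the 4 groups was left out. Those that kept it called 9.06%, 31.8%, 5.69% and 7.63% of all tested genes, in that order. The fits that lost it called 0.23% to 1.14%. Ezh2 had a value of 1.04 (SE 0.317, adjusted p = 0.0552) and Cbx7 one of 1.33 (SE 0.586, adjusted p = 0.139). Without the 4 GC-poor libraries these were 0.64 (adjusted p = 0.212) and 0.77 (adjusted p = 0.725). Ezh2 was called without vehicle A1 (1.20, adjusted p = 0.0373) and without AG221 A9 (1.27, adjusted p = 0.00756), and Bap1 without AG221 A9 (0.70, adjusted p = 0.00339), where 31.8% of all tested genes were called. For Suz12 (0.32, adjusted p = 0.337) and Asxl1 (0.13, adjusted p = 0.646) the values were smaller, and the AG221 group alone was close to combo for both. Since combo is the 1 group of the 4 with letter B, this term cannot be told apart from the letter either.

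Against WT, combo held 1 called member, Suz12 (44.0, 44.2 and 44.5 CPM in WT, log2 0.75, SE 0.157, adjusted p = 0.0253 by edgeR), beside 3.25% of all tested genes (1.63% higher). DESeq2 called 3 members, beside 8.23% of all genes it gave an adjusted p. The groups did not overlap for 6 of 10 members and for 41.6% of all tested genes. Bmi1 overlapped WT in combo (log2 0.59, SE 0.255, adjusted p = 0.169) and so did Cbx7 (log2 -0.21, SE 0.409, adjusted p = 0.779), while Ezh2 (0.46, adjusted p = 0.219) and Eed (0.54, adjusted p = 0.0792) did not overlap and were not called.

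AG221 against WT called 5 of 10 members beside 50.7% of all tested genes (22.2% higher and 28.5% lower). Suz12 (log2 0.74, adjusted p = 0.00249 by edgeR), Eed (0.58, adjusted p = 0.0128) and Asxl1 (0.37, adjusted p = 0.0265) were higher, and Ezh2 (-0.61, adjusted p = 0.0362) and Cbx7 (-1.53, adjusted p = 0.00973) were lower. Without the 4 GC-poor libraries, with AG221 A9 as the 1 library of its group, only sizes of differences are given. The value was 0.82 for Suz12 and 0.51 for Asxl1. It was 0.30 for Eed, -0.26 for Ezh2 and -1.16 for Cbx7, each smaller in size than in the main fit. Bmi1, at 18.6, 23.1 and 17.1 CPM in AG221, lay below WT without overlap (log2 -0.64, SE 0.256, adjusted p = 0.0512). Rux against WT called Bmi1 (-1.06, SE 0.258, adjusted p = 0.0108) and Cbx7 (-1.30, SE 0.417, adjusted p = 0.0318), both lower, beside 32.3% of all tested genes (16.2% lower). With the 4 GC-poor libraries left out, Cbx7 had -1.02 (adjusted p = 0.102). These comparisons share the 3 WT libraries.

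Ratios within a library depend little on the scaling between libraries. The log2 ratio of Ezh2 to Ezh1 CPM was -0.06, 0.25 and 0.91 in vehicle, 0.67, 0.24 and 0.61 in WT and 1.10, 1.45 and 1.21 in combo. Combo lay above every other library of both groups, 0.89 above vehicle (exact permutation test, p = 0.1), the smallest p that 3 against 3 libraries allow. Vehicle and WT overlapped (difference -0.14, exact permutation p = 0.7). AG221 A8 and A10 (-0.16 and -0.15) and Rux A16 (-0.34) were the lowest of all, while AG221 A9 stood at 0.79.

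The log2 ratio of Asxl2 to Asxl1 separated the groups more tightly. It was 1.73, 1.53 and 1.61 in vehicle, 1.76, 1.63 and 1.75 in Rux and 1.33, 1.21 and 1.21 in WT. In AG221 it was 0.77, 0.92 and 0.57, and in combo 0.88, 0.89 and 0.83. Both groups given AG221 lay below every library of the other 3 groups, AG221 by 0.87 and combo by 0.76 below vehicle in the mean (exact permutation p = 0.1 for each, the smallest possible). AG221 A9, with an ordinary level of GC-rich genes, had the highest ratio of the 6 libraries and was still under the lowest WT value. This ratio was looked at among 5 ratios, and in 9 comparisons each, all with the same smallest possible p.

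The log2 ratio of Asxl1 to Bap1, the activating subunit and its enzyme, was -2.64, -2.55 and -2.59 in vehicle and -2.75, -2.90 and -2.85 in Rux. In WT it was -2.12, -2.04 and -2.12, in combo -1.997, -2.03 and -1.62, and in AG221 -1.09, -1.69 and -1.23. AG221 values are in the order A8, A9 and A10. A8 and A10 are GC-poor libraries, with Bap1 at 110 and 123 CPM. A9 lay within the combo range. Rux was lowest and vehicle next, and neither overlapped WT.

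**Figure D4:**
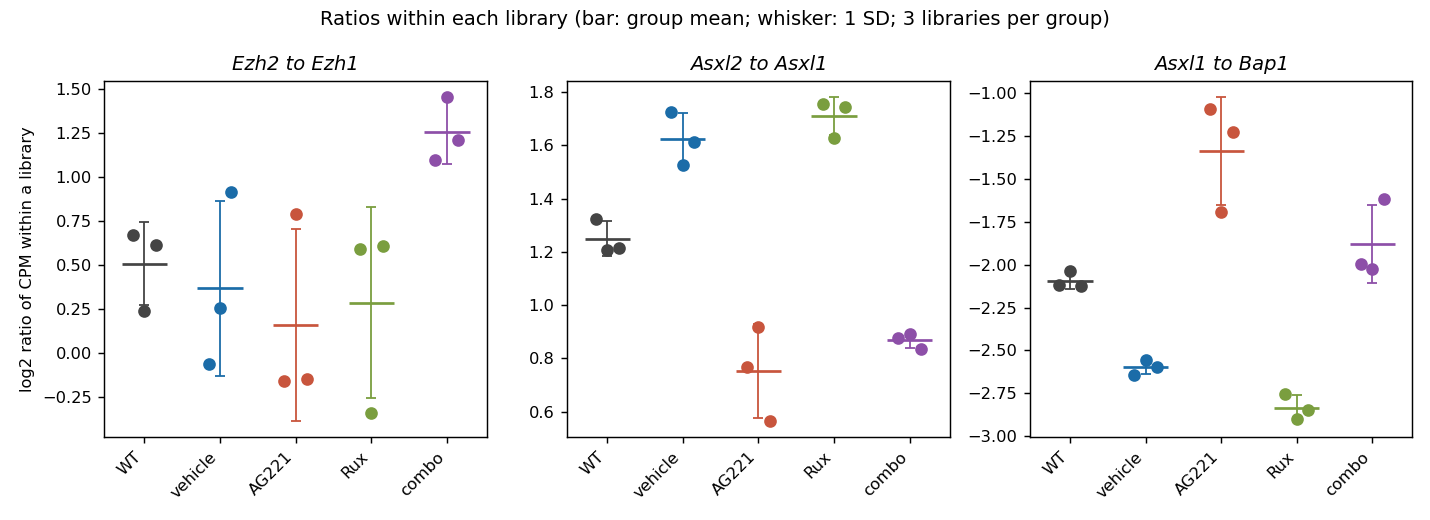
Log2 ratios of CPM within each library (vertical axes) for Ezh2 to Ezh1, Asxl2 to Asxl1 and Asxl1 to Bap1, by group, with points for libraries, bars for means and whiskers of 1 SD (n = 3). Asxl2 to Asxl1 is below 1 in all AG221 and combo libraries and above 1.2 in the others.

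The other genes of these complexes were taken as 4 lists, 8 PRC2 accessory genes, 10 genes of canonical PRC1, 12 of variant PRC1 and 8 PR-DUB partners, and all 38 were tested. In vehicle against WT, 5 were higher and 5 lower. In combo against vehicle, 5 were higher and 3 lower. AG221 against vehicle called 1 in each direction, beside 0.987% of all tested genes. Rux against vehicle called 0 by edgeR and by DESeq2, with 0 at an unadjusted p under 0.05. Combo against WT called 0 by edgeR and 2 by DESeq2, beside 3.25% and 8.23% of all genes. At an unadjusted p under 0.05 it had 9, beside 25.4% of all tested genes. Combo against AG221 called 15 higher and 4 lower, and combo against Rux 7 higher and 3 lower. At 26.3% in vehicle against WT and 21.1% in combo against vehicle, the shares called stood beside 33.3% and 12.5% of all tested genes. In combo against AG221 50% were called and in combo against Rux 26.3%, beside 33.2% and 12.4%. In the fit lacking the 4 GC-poor libraries, the counts were 5 higher and 7 lower in vehicle against WT. They were 5 and 3 in combo against vehicle and in combo against Rux. All tested genes called in these 3 comparisons were 30.5%, 12.2% and 10.7%. No count is given there for AG221, left with 1 library. Upper quartile factors gave 8 higher and 8 lower in combo against AG221, beside 39.4% of all tested genes. That comparison called 4 higher and 1 lower without AG221 A8, 6 and 1 without AG221 A10 or combo B24, and 10 and 1 without combo B25. The shares of all tested genes were 15.7% without A8, 16.9% without A10, 17.3% without B24 and 21.3% without B25. Combo against Rux called 5 and 1 without combo B25, beside 6.55% of all tested genes. Without vehicle A1, combo against vehicle called 1 higher and 2 lower, and without combo B25 it called 3 higher and 0 lower. These fits called 5.26% and 6.12% of all tested genes. Without AG221 A9, AG221 against vehicle called 1 higher and 11 lower, beside 24.4% of all tested genes. Without any other single library of these groups it called 0, and so it did with only the 2 groups compared. At most 0.141% of all tested genes were called in those fits.

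Among PRC2 accessory genes, Aebp2, which encodes a zinc finger cofactor of the complex, was at 28.8, 40.5 and 30.4 CPM in WT, 15.3, 16.1 and 17.8 CPM in vehicle and 54.0, 59.5 and 37.4 CPM in combo. It was lower in vehicle than in WT (log2 -1.02, SE 0.206, adjusted p = 0.00546 by edgeR) and higher in combo than in vehicle (1.62, SE 0.209, adjusted p = 0.000849). Jarid2, which recruits PRC2, went the other way, higher in vehicle than in WT (0.57, adjusted p = 0.0104) and lower in combo than in vehicle (-0.61, adjusted p = 0.0110). Rbbp4, a histone chaperone shared with other complexes, was higher in vehicle than in WT (0.64, adjusted p = 0.00607), and 18.0% of its exon bases overlap a gene on the opposite strand. Epop rose in combo (2.88, adjusted p = 0.0203) from 1.17, 2.84 and 3.59 CPM to 25.2, 24.1 and 6.66 CPM.

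In PRC1, Pcgf6, the paralog of Bmi1 in a variant complex, was at 24.96, 34.4 and 19.8 CPM in WT, 6.32, 10.5 and 14.3 CPM in vehicle and 49.8, 49.5 and 25.2 CPM in combo (vehicle against WT -1.35, adjusted p = 0.0295, and combo against vehicle 2.002, adjusted p = 0.00932, by edgeR). Cbx8, a chromodomain paralog of Cbx7, was lower in vehicle than in WT (-0.69, adjusted p = 0.0197). Phc3, a polyhomeotic subunit, fell in combo (-0.87, adjusted p = 0.00894). Bcor (0.44, adjusted p = 0.0230) and L3mbtl2 (0.83, adjusted p = 0.0189), of variant complexes, were higher in vehicle than in WT. As for Bmi1, combo B26 was the lowest combo library for Aebp2, Epop and Pcgf6.

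Of the PR-DUB partners, the host cell factor gene Hcfc1 was higher in vehicle than in WT (0.72, adjusted p = 0.00739 by edgeR) and lower in combo than in vehicle (-0.67, adjusted p = 0.0144). The glycosyltransferase gene Ogt was lower in vehicle than in WT (-0.53, adjusted p = 0.0113). The forkhead genes differed, with Foxk2 higher in combo than in vehicle (0.80, adjusted p = 0.0385) and Foxk1 higher in AG221 than in vehicle (1.18, adjusted p = 0.0458), at 10.2, 10.4 and 8.11 CPM against 4.78, 3.73 and 4.10 CPM. Kdm1b was lower in AG221 than in vehicle (-1.13, adjusted p = 0.0459). Without the 4 GC-poor libraries Foxk1 had 1.37 (adjusted p = 0.257) and Kdm1b -0.67 (adjusted p = 0.338). Asxl3, the third ASXL gene, was called lower in vehicle than in WT, but it stood at 0.0752, 0.0638 and 0 CPM in vehicle and 0.835, 5.83 and 1.34 CPM in WT, mostly from B30, and no fold is given.

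**Figure D5:**
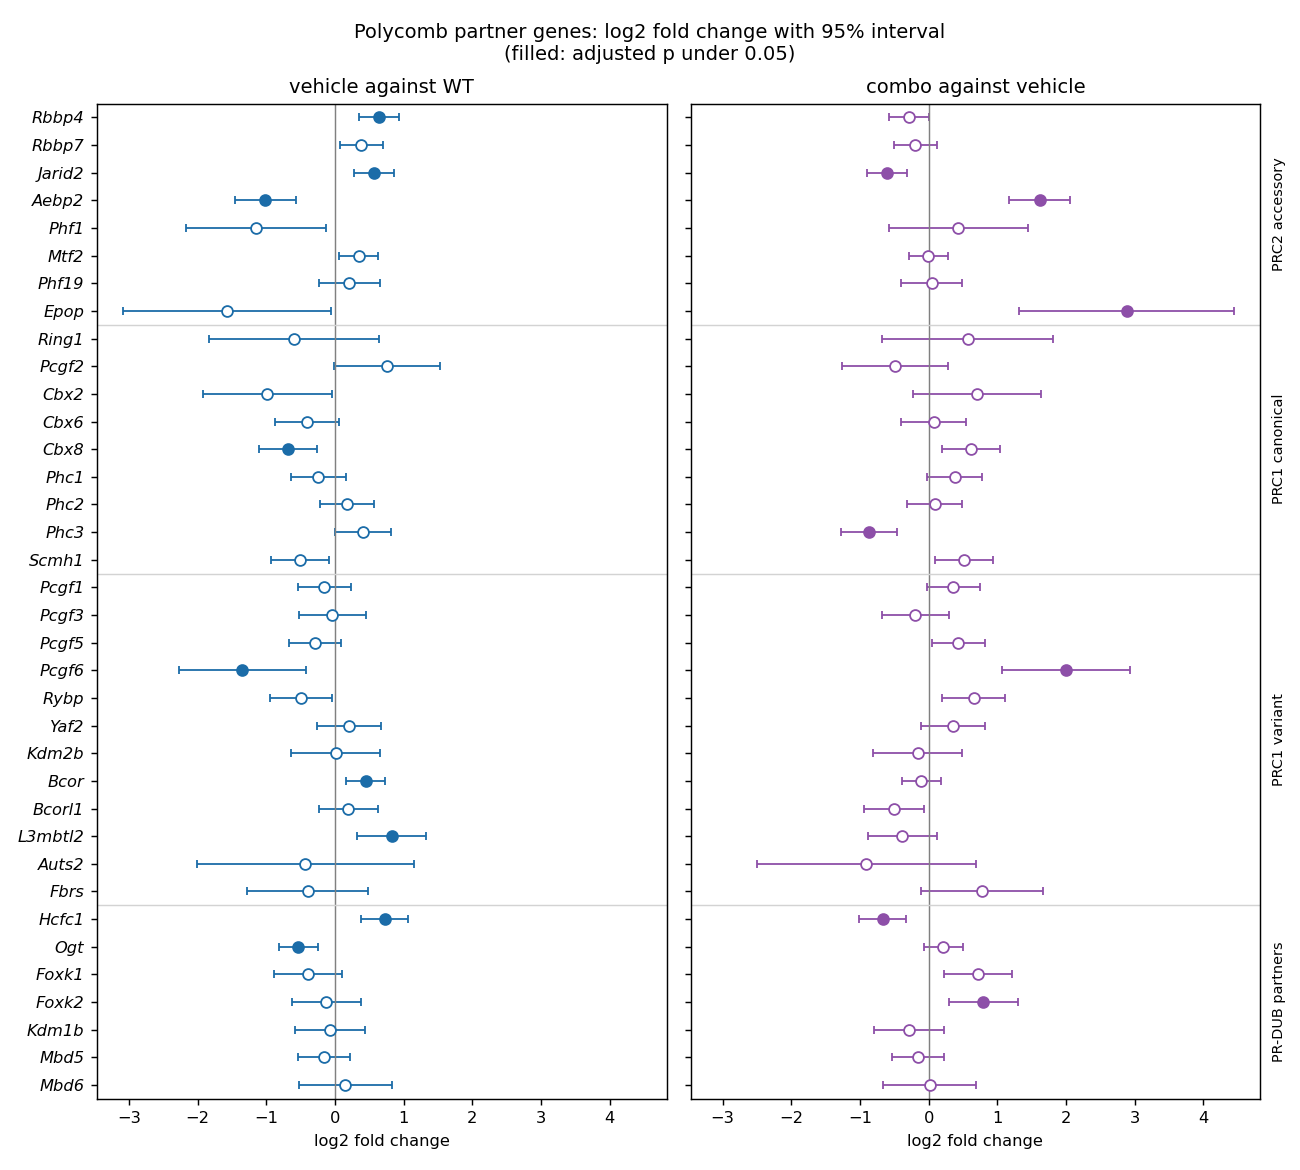
Log2 fold changes (horizontal axes) with 95% intervals of 36 Polycomb partner genes in vehicle against WT and in combo against vehicle, grouped by complex, with filled points for an adjusted p under 0.05. Aebp2 and Pcgf6 are filled on the low side on the left and on the high side on the right, and Jarid2 and Hcfc1 the other way. Asxl3 and 1 further gene are not drawn.

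The opposing enzymes were taken as 2 further lists. Kdm6a, the X-linked gene of an H3K27 demethylase, was lower in vehicle than in WT (-0.60, SE 0.175, adjusted p = 0.0216 by edgeR), at 92.2, 112 and 91.8 CPM against 165, 142 and 141 CPM, and this gene is known to escape X inactivation. Sex cannot be told apart from genotype in this comparison. It was also lower in AG221 than in vehicle (-0.87, adjusted p = 0.0458), with 43.6, 71.2 and 47.2 CPM, and without the 4 GC-poor libraries the difference was -0.55 (adjusted p = 0.361). No gene at all was called in AG221 against vehicle without vehicle A1, vehicle A4, AG221 A8 or AG221 A10, so the calls of Kdm6a, Foxk1 and Kdm1b ended there. Of 11 MLL/COMPASS genes, which place the opposing mark, 1 was higher and 2 lower in vehicle than in WT, beside 15.4% and 17.9% of all tested genes. Kmt2a was lower in vehicle than in WT (-0.45, adjusted p = 0.0290) and higher in combo than in vehicle (0.54, adjusted p = 0.0250), as the 1 gene of the list called in the latter comparison.

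Genes that Polycomb keeps silent in most adult tissues were low in every group. Of 16 developmental genes, 1 (Pax6) had enough counts to be tested, and their summed level was at most 5.16 CPM in any library. The sum was 1.52, 5.16 and 1.78 CPM in WT B28, B30 and B31 and at most 1.30 CPM in any mutant library. WT B30 also had the highest plasma cell sum and the highest Pax6 value. Pax6 was lower in vehicle than in WT, at 0.338, 0.447 and 0.197 CPM against 0.617, 1.85 and 0.838 CPM.

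For each member, the tested gene with the most similar pattern was found by the root mean square difference of centred log2 CPM over the 15 libraries. For Bmi1 it was Pkn2 (0.111, beside an SD of Bmi1 of 0.685) and then Ulk2 (0.118). For Ezh2 it was Thap4 (0.117, SD of Ezh2 0.456) and Atf1 (0.128), for Suz12 Sik3 (0.165) and Sfpq (0.170), and for Asxl1 Dyrk1a (0.110) and Kif13a (0.120). Cbx7 had no neighbour as close, with Map4k2 (0.244) and Camk2d (0.248). Bap1 was closest to Qrich1 (0.0741) and Ccdc97 (0.0866), Eed to Brd7 (0.0913) and Arpc1a (0.116), Asxl2 to Herc1 (0.0959) and Ugdh (0.103), Ezh1 to Rbm5 (0.0817) and Arhgap18 (0.0972), and Rnf2 to 2410002F23Rik (0.102) and Casp2 (0.105). SDs of the other members were 0.449 (Suz12), 0.297 (Asxl1), 0.347 (Bap1), 0.278 (Eed), 0.181 (Asxl2), 0.182 (Ezh1) and 0.145 (Rnf2). A small difference means less for the genes that varied least.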

How the data were processed

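RNA sequencing of sorted LSK cells gave 15 libraries in 5 groups of 3, taken from the sample labels. The authors deposited raw counts of reads per Ensembl gene. Per the submitters' processing notes, STAR 2.5.1a and DESeq2 1.6.3 were used with mm10 (GRCm38), and libraries were made by SMARTer amplification. The strand setting of the counting is not given in the sources used here, so reads of genes on opposite strands cannot be separated. A second deposited table, of DESeq2-normalized values, was not used.

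The raw counts, 18836625 to 32174287 per library, were fitted with edgeR 4.0.16 in R 4.3.3 (TMM factors, filterByExpr by group, quasi-likelihood test, 1 model of all 15 libraries, no covariate). Genes with a Benjamini-Hochberg adjusted p under 0.05 over 17834 tested genes were called. CPM are TMM-scaled, log2 CPM used a prior count of 2, and RPKM used the union of exons in GENCODE M21, which named 44585 of 45232 genes. Standard errors are the log2 fold change divided by the square root of F. Ratios were compared by exact two-sided permutation over libraries. The fit was tested beforehand on simulated data, in vehicle against WT. It recovered 45% of 100 changes of log2 1 and 98% of 100 changes of log2 2, and called 8 unchanged genes. No other gene of the 17834 was changed, and no library was made low in GC-rich genes. The real comparison called 33.3% of tested genes, so these rates need not hold for it. A gene that is not called can still differ.

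The members, lists and comparisons were chosen with earlier results of these data known. Named genes were all members, up to 3 genes per partner list, comparison and direction by smallest adjusted p, and the 2 genes nearest to each member. The values of 1 partner gene, which is included in the counts, are not reported here. DESeq2 1.42.0, other scalings, other filters, a GC content offset and leaving out libraries were the alternatives. The interaction term and the fit without 4 GC-poor libraries were added after seeing the data.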

Additional observations from a re-analysis of the deposited data

Results flagged for a closer look

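The AG221 difference of Bmi1 itself differed with and without ruxolitinib, in a test that called 8.42% of all tested genes. Ezh2 missed the threshold at an adjusted p of 0.0552, and was called without vehicle A1 or without AG221 A9. The AG221 log2 difference with Rux (combo against Rux) minus that without Rux (AG221 against vehicle) was 1.35 (SE 0.363, adjusted p = 0.0434 by edgeR). Leaving out single libraries gave 1.14 to 1.58, with adjusted p-values from 0.0100 to 0.118, and a GC content offset gave 1.27 (adjusted p = 0.0397). The share of all tested genes called ran from 0.23% to 31.8% without single libraries and was 11.2% with the GC content offset. Without the 4 libraries low in GC-rich genes, an alternative chosen after seeing the data, it was 1.03 (adjusted p = 0.322). Combo libraries carry another letter than the other 3 groups of this term, so letter and treatment cannot be told apart.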

How the results depend on the processing

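No paired analysis was possible because the groups share no replicate numbers. Of the 21 called member differences, each under 14 alternatives, 225 of 294 values kept direction and call, 69 lost the call and 0 reversed. The cause was not tested where a count moved. In AG221 against vehicle the members called, 0 by edgeR with TMM, were 2 with RLE factors, 2 with upper quartile factors, 3 with at least 10 counts in every library, 1 with a GC content offset and 3 with DESeq2, and 0 to 4 without single libraries. The fits from RLE to DESeq2 called 1.19%, 4.14%, 7.12%, 1.9% and 15.4% of all genes in that order, beside 0.987% with TMM. In combo against WT, with 1 called, there were 0 with upper quartile factors, 0 with at least 10 counts in every library, 3 with DESeq2, and 0 to 1 without single libraries. The main fit called 3.25% of all genes, upper quartile factors 3.59%, the filter of 10 counts 2.15% and DESeq2 8.23%. In AG221 against WT, with 5, there were 3 with no filter beyond 1 count, 3 with only the 2 groups compared, and 3 to 6 without single libraries. In combo against AG221, with 4, there were 2 with the GC content offset, and 2 to 4 without single libraries. Leaving out single libraries gave 0 to 2 in vehicle against WT (0 without vehicle A1 or WT B30), 1 to 4 in combo against vehicle, and 0 to 2 in Rux against WT (0 without WT B30). Shares of all tested genes called moved as well. In vehicle against WT the share was 33.3%, 18.3% without vehicle A1 and 10.5% without WT B30. In Rux against WT it was 32.3%, and 10.6% without WT B30. In AG221 against WT it was 50.7%, 26% with no filter beyond 1 count and 47.8% with only the 2 groups compared. Without single libraries it was 33.9% to 56.4% there. In combo against AG221 it was 33.2%, 36.4% with the GC content offset, and 15.7% to 42.6% without single libraries. The uncalled Cbx7 difference of combo against WT ran from -0.57 to 0.072, turning positive without combo B26 or WT B30. The Ezh2 to Ezh1 log2 ratio of vehicle minus WT ran from -0.41 to 0.076 without single libraries, and was 0.076 without the 4 GC-poor ones, since vehicle A1 is the 1 library of these groups among them. Upper quartile factors moved the median log2 difference of all genes in combo against AG221 from 0.11 to -0.18 and the share of higher calls in vehicle against WT from 46.3% to 26.7%, in combo against WT from 50.3% to 15.9%, in AG221 against vehicle from 47.7% to 77.4% and in combo against AG221 from 57% to 38%. With 3 libraries a group, the exact permutation test cannot go below p = 0.1.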
